A study of Mus musculus with 4 samples.

Results

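Cytosolic ribosomal protein genes encode the proteins of the 2 subunits of the cytoplasmic ribosome. Their members were taken from a table of gene expression in mouse glomeruli by symbol: protein-coding genes named Rpl, Rps or Rplp with a number, or Rpsa, with a mean of at least 1 TPM over the 4 libraries and without kinases named Rps6k and names with -ps or Gm. TPM is the read count of a gene divided by its length and brought to 1 common total per library. The rule found 84 of 22809 listed genes. Of these, 46 encode core proteins of the large subunit and 31 core proteins of the small subunit, 77 in all. Another 6 are paralogues, second genes for a subunit protein or genes related to one (Rpl3l, Rpl7l1, Rpl22l1, Rpl36al, Rps27l and Rps27rt). The last, Rps19bp1, encodes a protein that binds RPS19 and is no part of the ribosome, so it is given apart. The members nearest the threshold were Rps27rt, with a mean of 1.15 TPM, Rpl36al with 1.33 and Rpl3l with 1.37, and 0 listed protein-coding genes of these names lay below it.

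Each library holds poly(A) RNA of fresh glomeruli from 2 pooled mice, aged 3 weeks. The 2 control libraries are labelled as wild type with no treatment, and the other 2 as podocyte-specific knockout of HDAC. The series title names Hdac1 and Hdac2 as the deficient genes. HDAC1 and HDAC2 are histone deacetylases, and podocytes are the epithelial cells around the glomerular capillaries. The Cre line, the strain and the sex of the mice are not stated in the labels. The design text speaks of 2 independent experiments without saying which libraries belong to each. Where 4 values follow a gene, they are control 1, control 2, knockout-labelled 1 and knockout-labelled 2. Hdac1 was at 19.3, 18.6, 22.9 and 22.5 TPM, and Hdac2 at 20.2, 24.1, 23.5 and 20.9 TPM. Neither transcript was lower under the knockout label, so directions given here rest on the labels. Whole reads recovered from the TPM numbered between 12876939 and 20943138 per library, and between 96136 and 230126 of them fell on the 77 core genes.

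Ribosomes translate every mRNA of the cytoplasm. The small subunit reads the mRNA and the large subunit joins the amino acids, and each ribosome holds 1 copy of most of these proteins, so cells make them in matched amounts. In mammals their mRNAs begin with a run of pyrimidines, the 5′ terminal oligopyrimidine or TOP motif, through which mTORC1 signalling and LARP1 set their translation. Growth signals, MYC and proliferation are known to raise ribosome production.

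The promoters are shown first because the start of transcription is what these genes are known to share. RefSeq promoter windows of GRCm38.p6, which span 250 bases before and 50 after an annotated start, were found for 57 of the 77 core genes, in 67 windows. Each line gives a stretch of 30 bases, 5′ to 3′ on the coding strand, with the longest run of C and T within 50 bases of the start in capitals.
Rpl13a, chr7:45128722-45128751, minus strand: cgacaagaCCTCCTCCTTTCCCaggcggct
Rpl18, chr7:45718062-45718091, plus strand: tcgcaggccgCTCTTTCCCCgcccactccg
Rpl22, chr4:152325679-152325708, plus strand: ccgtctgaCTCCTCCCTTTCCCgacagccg
Rps12, chr10:23787181-23787210, minus strand: caccgccggCCTTTTCCCCTgccgccgccg
Rps15, chr10:80292447-80292476, plus strand: cagcccgtaCTTCCTTTTCCgagtaaccgc
Rpl12, chr2:32961732-32961761, plus strand: ggaggaggcaacggtgcaaCTTTCTTCggt
Rpl24, chr16:55966227-55966256, plus strand: acctcaaacccaCTCCCCgccaatgctgta
Rps27, chr3:90213631-90213660, minus strand: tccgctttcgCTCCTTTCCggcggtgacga
Rps27l, chr9:66946054-66946083, plus strand: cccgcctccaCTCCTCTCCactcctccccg
Rpl7l1, chr17:46782670-46782699, minus strand: gtcgaggcgggCCTCTCTaccccgcccggt
The first 5 are examples of core genes with a run of at least 10, Rpl12 and Rpl24 are the core genes with the highest and the lowest fold change in these libraries, and Rps27 stands beside its paralogue Rps27l, with Rpl7l1 as another paralogue. A run of at least 10 pyrimidines lay in this stretch in 47 of the 67 core windows (70.1%) and in 18.1% of all 32851 promoter windows. The longest run had a median of 11 bases in the core windows and 7 in all windows. Among the first 5 lines, the run began at bases 2, 3, 9 and 26 from the annotated start in Rpl18, Rpl13a, Rps12 and Rps15. In Rpl22 it began 39 bases before the start, and another window of Rpl22 had a longest run of 5. A run counted here thus need not lie at the start of an mRNA. Of 5 short motifs searched on both strands of the whole window, CTTTCC, which lies within the runs shown for Rpl13a and Rpl22, was in 49.3% of core windows and 26.6% of all windows, and CCGGAAG, the core letters of ETS factor sites, in 37.3% and 8.86%. GGGCGG, the letters of an SP1 site, was in 61.2% and 35.7%, AAGATGG, from YY1 sites, in 16.4% and 6.34%, and the TATA box letters TATAAA in 9.0% and 13.6%. These matches describe the letters of the windows and do not show binding, and the annotated starts need not be the exact starts used in glomeruli.

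The core genes spanned a wide range of levels. Over the 4 libraries, mean TPM per gene ran from 3.56 for Rps10 to 637 for Rplp1, with a median of 138. The highest of the large subunit was Rplp1, an acidic protein of the stalk that recruits elongation factors, at 505, 513, 709 and 820 TPM. Rpl36 was next at 348, 355, 488 and 581 TPM. Rpl4, whose protein reaches into the exit tunnel for the new chain, was at 303, 329, 475 and 589 TPM. Rplp0, the base of the stalk, was at 293, 314, 504 and 573 TPM. In all 4 genes both knockout-labelled values lay above both control values. The highest of the small subunit were Rps15, at 441, 439, 603.5 and 752 TPM, and Rps2, near the mRNA entry, at 304, 312, 393 and 489.9 TPM. Rps29 was at 255, 278, 376 and 382 TPM, and Rps4x, on the X chromosome, at 175, 232, 321 and 349 TPM. Here too the groups did not overlap. Within a library the same genes led throughout: Rplp1 held 4.77% to 5.30% of the summed core TPM and Rps15 4.09% to 4.63%.

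**Figure D1:**
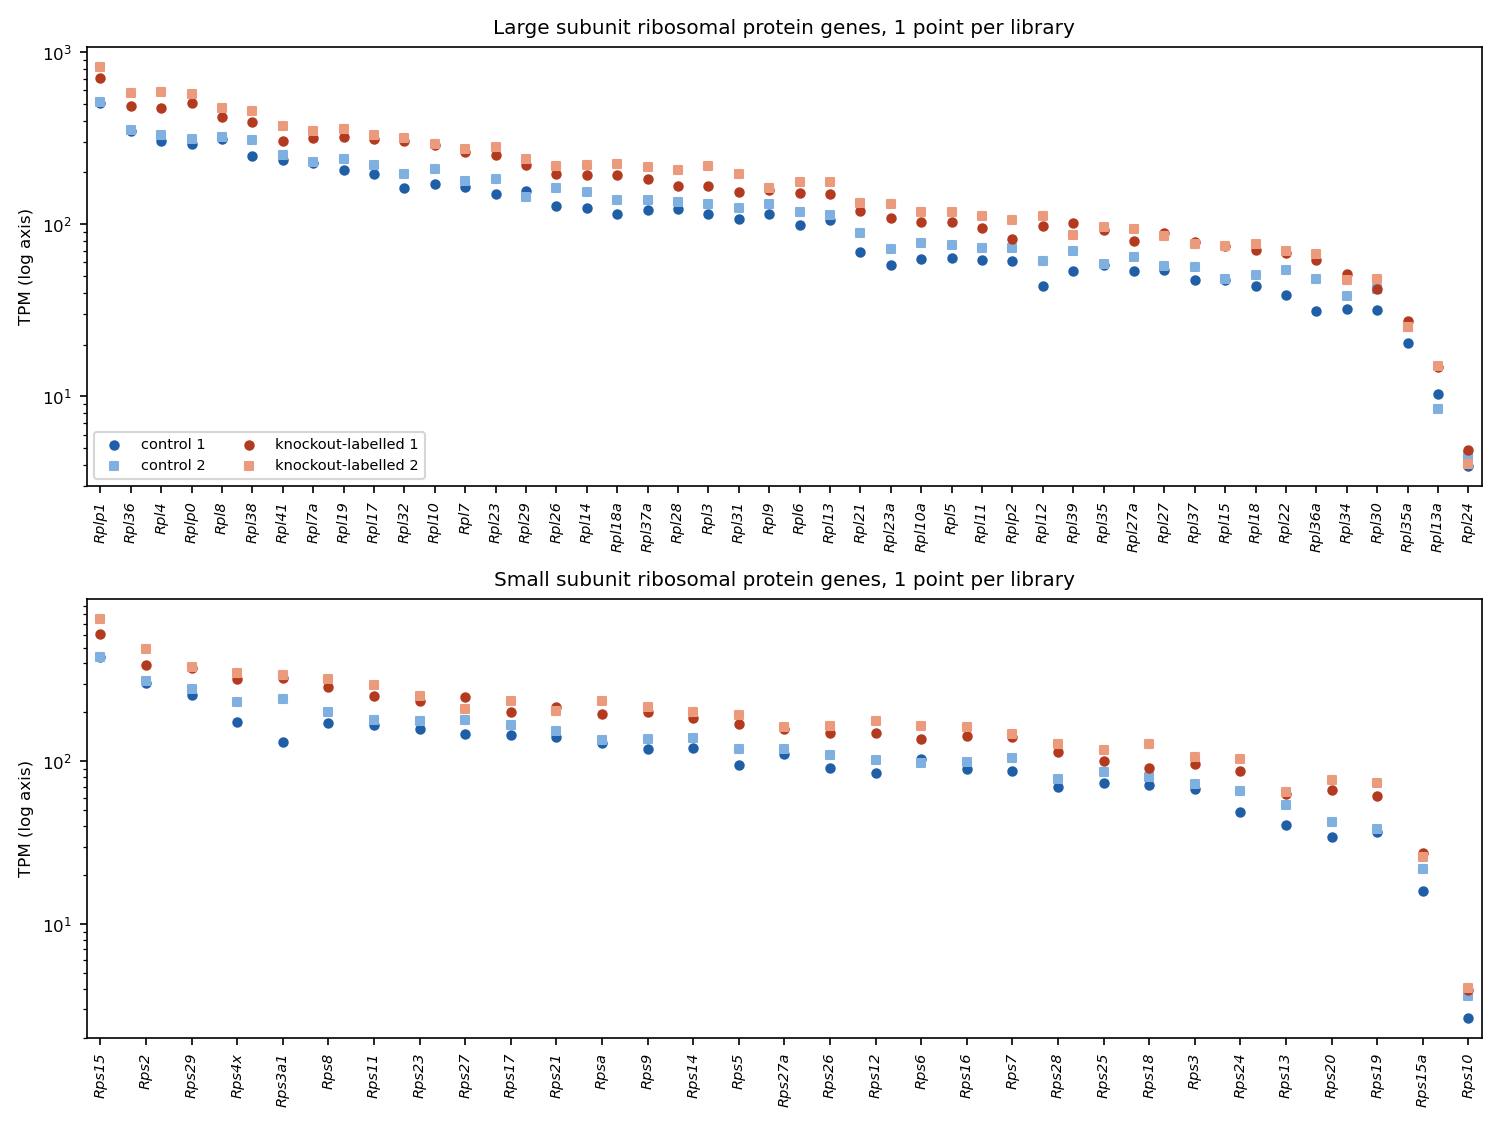
TPM (log axis) of each of the 46 large subunit and 31 small subunit core genes in the 4 libraries, ordered by mean level. Blue points are the controls and red points the knockout-labelled libraries. The red points lie above the blue ones in 75 of the 77 genes, beside 36.7% of all tested genes.

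Levels of different core genes were set beside gene length and shared sequence. Multiplying the deposited TPM by the length of the union of annotated exons gave whole reads, and that union was 1.0 to 9.80 times as long as the principal mRNA, with a median of 2.11. Rps15a, chosen for this ratio after it was seen, had the largest, 9.80, and a low level of 15.97, 22.0, 27.4 and 26.0 TPM. Across the 77 core genes the ratio and mean TPM had a Spearman rho of -0.58, given as a description, since the genes share libraries and TPM contains this length. For the share of exon bases that lie in other genes the rho was -0.21, and for the share of 50-base stretches found elsewhere it was 0.02. Rpl24, a large subunit protein, was listed at 3.92 to 4.88 TPM from 25 to 36 reads per library, and Rps10 at 2.65 to 4.04 TPM from 41 to 78 reads. In Rpl24 47.0% and in Rps10 28.7% of the exon bases also belong to exons of other genes, on either strand. Rpl35, chosen for its share after it was seen, had the largest, 66.2%, and a mean of 76.3 TPM. For 39 of the 77 genes at least 50% of the mRNA's 50-base stretches also occur, letter for letter, in annotated transcripts of other genes. How reads with several matches were counted is not given in the sources used here.

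Most core genes were higher in the knockout-labelled libraries, and none passed the test. In 75 of 77 genes both knockout-labelled values lay above both control values, and in 0 below, where 36.7% of all 18612 tested genes lay above and 14.3% below. The 2 genes whose groups overlapped were Rpl24 and Rpl35a. The 77 log2 fold changes (log2 of TPM + 1, knockout-labelled minus control) were all positive, from 0.06 for Rpl24 to 1.0004 for Rpl12, with a median of 0.61. Their spread was narrow, with an SD of 0.15 against 0.63 over all tested genes. The median fold of mean TPM was 1.53, and 48 of 77 genes had a fold of at least 1.5, beside 4108 of all 18612. In limma's test over all tested genes with Benjamini-Hochberg adjustment, 0 of 77 passed 0.05 (lowest adjusted p = 0.116, for Rps20), where 0.00537% of all tested genes, a single gene, did. At an unadjusted p under 0.05, 67 of the 77 were higher, against 13.4% of all tested genes higher and 4.46% lower. Such p-values were more frequent at high levels. Of 463 tested genes at or above the core median TPM, core genes included, 207 had one, in either direction. Without control replicate 2, 19 core genes passed, beside 1558 higher and 522 lower of all 18612 tested genes, and without each of the other 3 libraries 0 core genes did. In such a fit the lone library of its group is assumed to vary like the other group, which alone gives the spread.

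The scale of the table bears on these numbers. The median log2 fold change of all tested genes was 0.17 in the deposited TPM; median-ratio scaling lowered it by 0.18, to -0.02. Relative to all tested genes, the core median was 0.44 as deposited and between 0.38 and 0.49 under every alternative tried. After median-ratio scaling 75 of 77 core genes still had both knockout-labelled values above both controls, beside 25.3% of all tested genes. Rpl24 (-0.11) and Rpl35a (-0.01) then had log2 fold changes below 0. At an unadjusted p under 0.05 the number of core genes was 15 after that scaling, where 1844 of all 18612 tested genes were higher, and 35 with TPM over nuclear genes only, where 1669 were. It was 30 without knockout replicate 1, beside 1192 of all tested genes, and 6 without knockout replicate 2, beside 961, a share of the core genes near that of all genes. Mitochondrial transcripts took 38.7% to 46.5% of TPM, with control replicate 2 highest.

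**Figure D2:**
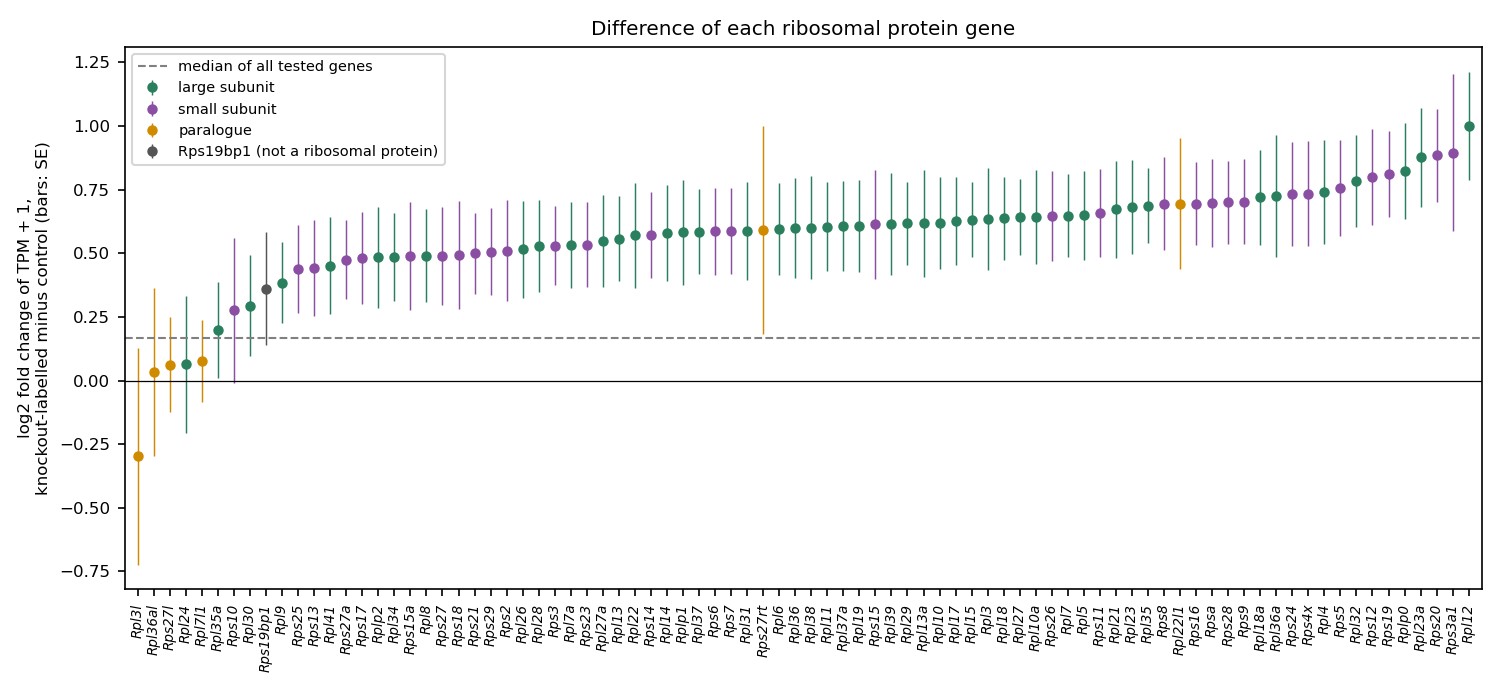
Log2 fold change of TPM + 1 with its standard error from limma for all 84 members, ordered by size. The core genes of both subunits are interleaved around 0.61, above the dashed median of all tested genes at 0.17, and 4 of the 6 paralogues are at the low end.

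In the large subunit, 44 of 46 core genes did not overlap between the groups, all of them higher. Among the 18612 tested genes, 36.7% were higher without overlap and 14.3% lower. The median log2 fold change of the 46 large subunit genes was 0.61. Rpl12, a protein of the stalk base, had the highest fold change, at 43.7, 61.2, 98.2 and 111 TPM (2.00-fold, log2 difference 1.0004 ± 0.21 SE, limma adjusted p = 0.119). Rpl23a, at the exit of the tunnel, was at 57.9, 72.0, 108 and 131 TPM (1.85-fold, adjusted p = 0.124 by limma). Rplp0 followed, 1.77-fold higher. Of Rpl23a's exon bases, 62.3% are shared with other genes. At the other end were Rpl24, with overlapping values, Rpl35a, at 20.4, 25.4, 27.3 and 25.3 TPM, and Rpl30, at 31.9, 41.8, 42.2 and 47.9 TPM. For Rpl30, control replicate 2 and knockout replicate 1 were nearly level, and its log2 fold change of 0.29 was 0.10 without control replicate 1 and 0.48 without control replicate 2. For Rpl35a, at 0.20, these were 0.05 and 0.35. The 3 stalk proteins differed among themselves: the log2 fold change was 0.82 for Rplp0, 0.58 for Rplp1 and 0.48 for Rplp2. Rpl5 and Rpl11, which carry the 5S ribosomal RNA and can bind the p53 regulator MDM2, had 0.65 and 0.60 (SE 0.17 for each). These genes were chosen for their roles after their values had been seen. Over all core genes the median SE was 0.18, and differences between single core genes were not tested.

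In the small subunit all 31 core genes had both knockout-labelled values above both controls, and the median log2 fold change was 0.59. Rps3a1 had the highest log2 fold change of TPM + 1, 0.89 (SE 0.31, 1.78-fold in mean TPM, below the 1.86-fold of Rps20), and the widest split between the controls, 132 and 242 TPM beside 326 and 340 TPM in the knockout-labelled libraries. Without control replicate 1 it was 0.46, and without control replicate 2 it was 1.33, from a fit in which control replicate 1 is the lone control. Rps20 was at 34.4, 42.5, 66.8 and 76.4 TPM (1.86-fold, log2 difference 0.88 ± 0.18 SE, limma adjusted p = 0.116). Rps19, the gene most often mutated in Diamond-Blackfan anaemia, was at 36.9, 38.6, 61.1 and 73.2 TPM (1.78-fold). The 2 controls of Rps19 were close together and well below both other values. The lowest fold changes were those of Rps10 (0.28, SE 0.29), Rps25 (0.44, SE 0.17) and Rps13 (0.44, SE 0.19). Without control replicate 1 that of Rps10 was 0.10 and that of Rps13 0.25, and without control replicate 2 they were 0.45 and 0.64. Rps25, which takes part in initiation at internal ribosome entry sites, was at 74.1, 85.5, 100.1 and 117 TPM, and Rps13 at 40.7, 53.7, 62.9 and 64.9 TPM. Rps6, the substrate of the S6 kinases, was at 103, 97.3, 137 and 166 TPM, and Rps27a, which is made as a fusion with ubiquitin, at 111, 120, 158 and 163 TPM. Both were chosen for their roles after their values were seen, and in both the groups did not overlap.

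Large and small subunit genes were compared by 3 measures, which did not all point the same way. The ratio of summed large to summed small subunit TPM was 1.55, 1.52, 1.53 and 1.54, so both knockout-labelled ratios lay between the controls. The ratio of median TPM was 1.03, 1.01, 0.965 and 0.988, below both controls in both knockout-labelled libraries, with gaps within the groups smaller than the difference of the group means. The medians of the log2 fold changes differed by 0.02 (large minus small), and by -0.04 without knockout replicate 1 and -0.0062 without knockout replicate 2. Within groups, the large minus small difference of median log2(TPM + 1) per library had an SD of 0.024. That SD belongs to the comparison of median TPM, not to the difference of median fold changes. Together the core genes held 0.952%, 1.08%, 1.47% and 1.65% of the TPM. Over nuclear genes only these shares were 1.59%, 2.01%, 2.48% and 2.69%.

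**Figure D3:**
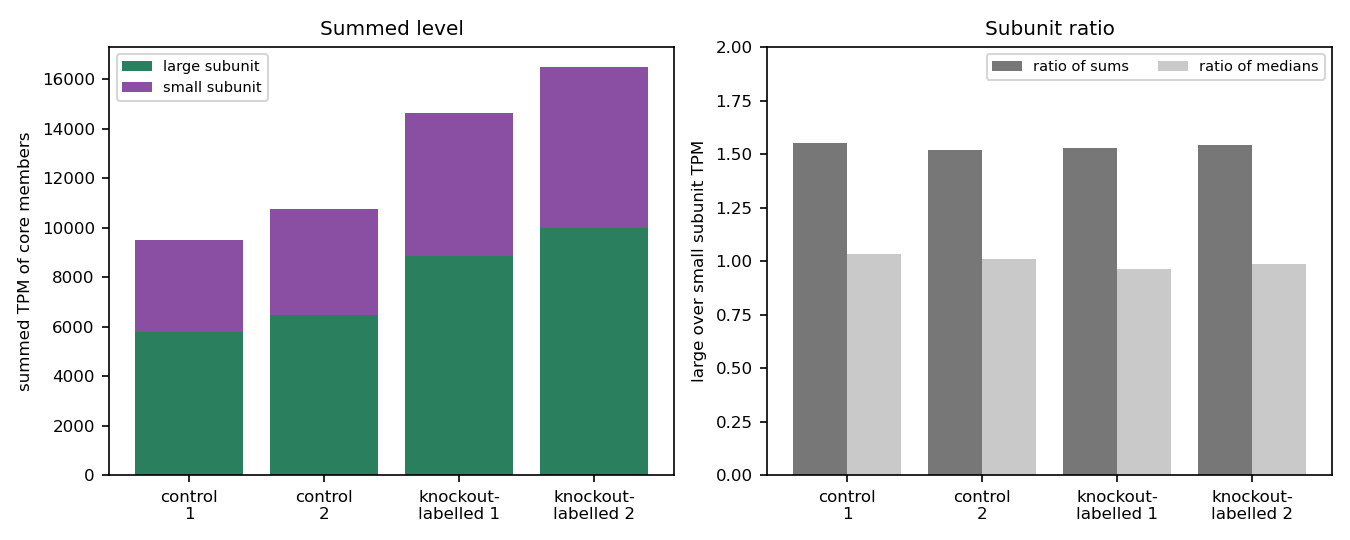
Left, summed TPM of the core large (green) and small (purple) subunit genes in each library; right, the ratio of large to small subunit TPM from sums and from medians. The summed level is higher in both knockout-labelled libraries, while the ratio of sums stays between 1.52 and 1.55 in all 4.

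Libraries of the same group also differed, over all tested genes as well as over the core genes. Control replicate 2 was above control replicate 1 in 73 of 77 core genes, by a median of 0.20 log2 units, and in 13475 of all 18612 tested genes, by a median of 0.28. Knockout replicate 2 was above knockout replicate 1 in 68 of 77, by a median of 0.17, and in 11950 of all tested genes, by 0.09. The nearest pair across the groups, knockout replicate 1 and control replicate 2, differed by a median of 0.43. The spread of these differences over the core genes was alike within and between groups: the SD over genes was 0.16 between the controls, 0.14 between the knockout-labelled libraries and 0.15 to 0.21 for the 4 pairs across groups. The 4 core genes on the X chromosome, Rpl10, Rpl36a, Rpl39 and Rps4x, had log2 fold changes of 0.61 to 0.73. Across core genes, log2 fold change had a Spearman rho of 0.31 with mRNA length and -0.07 with its GC content, and 0.12 with mean TPM, as descriptions over 77 genes of the same libraries.

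Of the 6 paralogues, 5 had overlapping groups, as had 9132 of all 18612 tested genes. Rps27l, a gene known as a target of p53, was at 73.5, 91.7, 92.3 and 79.6 TPM, with overlapping groups and a log2 fold change of 0.06 (SE 0.19). Its partner Rps27 was at 147, 180, 248.96 and 211 TPM, without overlap, and its log2 fold change was 0.49 (SE 0.19). The difference between the 2 genes was not tested. Rps27, Rpl7 and Rpl22 were chosen as partners of named paralogues after their values were seen. Rpl7l1, related to Rpl7 and involved in ribosome assembly, was at 28.9, 29.8, 29.7 and 32.4 TPM (log2 fold change 0.08, SE 0.16), while Rpl7 was at 164, 178, 264 and 272 TPM. The difference of Rpl7l1 was smaller than its SE, and its sign turned negative (-0.13) after median-ratio scaling, as did that of Rps27l (-0.15). Rpl22l1, a paralogue of Rpl22 whose level is known to be held down by RPL22, was the 1 whose groups did not overlap, at 9.24, 14.4, 20.3 and 18.4 TPM (1.64-fold, log2 difference 0.69 ± 0.26 SE, limma adjusted p = 0.253). Without control replicate 1 its log2 fold change was 0.40, and without control replicate 2 it was 0.99. Rpl22 itself was at 39.0, 54.4, 67.8 and 70.2 TPM (1.48-fold). Rpl3l, the striated muscle form of Rpl3, was at 2.18, 1.02, 0.595 and 1.67 TPM, from 7 to 24 reads per library. Rpl36al was at 0.968 to 1.66 TPM from 7 to 15 reads, and Rps27rt at 0.40 to 2.24 TPM from 1 to 6 reads. The SE of their log2 fold changes was 0.33 to 0.42, against a median of 0.18 for core genes. Rps19bp1 was at 14.9, 17.96, 18.6 and 24.4 TPM (log2 fold change 0.36, SE 0.22).

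The sequences of Rps3a1 and its processed copy are shown because their levels divided differently between the controls. Rps3a1 (chr3:86137940-86142702, minus strand) has an intronless copy, Rps3a3, on chromosome 13. Over 795 aligned bases the transcripts differ at 9, an identity of 98.9%. No stretch of 60 coding bases holds more than 2 of these differences. The earliest stretch with 2 is shown, counted 201 to 260 from the A of the start codon of Rps3a1. The differences are in capitals (T216C and T260C, Rps3a1 base first).
Rps3a1: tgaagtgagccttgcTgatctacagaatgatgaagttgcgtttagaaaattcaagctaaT
Rps3a3: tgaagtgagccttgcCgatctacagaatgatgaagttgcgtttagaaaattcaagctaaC
Rps3a3 was listed at 113, 68.0, 109 and 101 TPM. It made up 46.1% of the 2 genes' TPM in control replicate 1 and 21.9% to 25.1% in the other 3 libraries, so control replicate 1, where Rps3a1 was lowest, stood apart in how the pair was divided. Their sum was 245, 310, 436 and 441 TPM, with both knockout-labelled values above both controls, and a smaller gap between the controls than for Rps3a1 alone. All pseudogenes with ribosomal protein names, 64 in the table, summed to 306, 314, 417 and 427 TPM, or 2.59% to 3.22% of the core sum. Copies listed under other names, such as Gm names, are not in this sum. Rpl3-ps1 on the X chromosome, which the sum includes, was at 0.865, 8.501, 31.4 and 25.1 TPM, from 7, 55, 272 and 254 reads. Its parent Rpl3 was at 115, 130, 167 and 219 TPM. Rpl3-ps1 was chosen after its values had been seen, and whether its reads come from that locus was not tested.

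**Figure D4:**
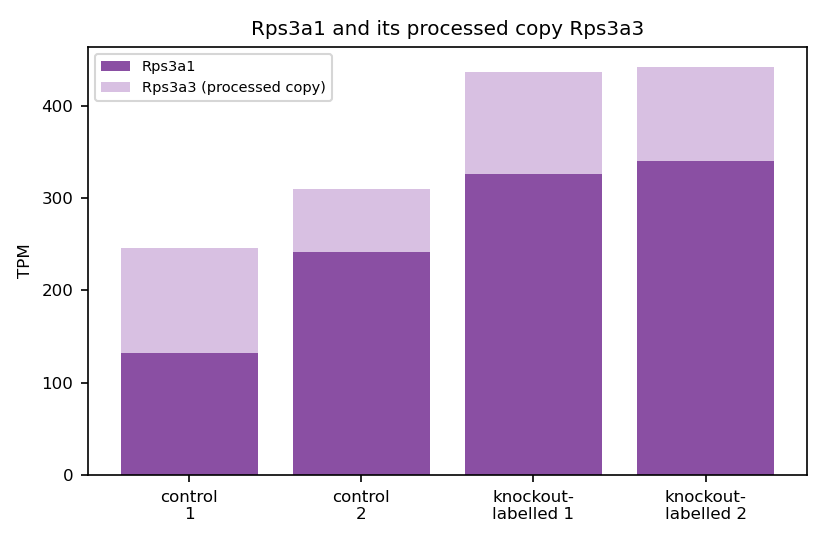
TPM of Rps3a1 (dark) and its processed copy Rps3a3 (light) stacked in each library. The copy takes 46.1% of the pair in control replicate 1 and 21.9% to 25.1% in the others.

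Genes that work with the ribosome were read from lists of 7 kinds, each to be set beside the 36.7% of all tested genes that were higher without overlap and the 14.3% that were lower. Fau, whose product is made as a fusion and gives the small subunit protein RPS30, falls outside the symbol rule and was at 179, 186, 234 and 301 TPM (log2 fold change 0.54, SE 0.19). Its groups did not overlap, and its fold change lay within the range of the core genes. In a list of 16 elongation factors and other mRNAs with a TOP motif or made with the ribosome, 16 of 16 had both knockout-labelled values above both controls, with a median log2 fold change of 0.48. Pabpc1, the poly(A) binding protein, was at 76.4, 84.0, 149 and 170 TPM (1.99-fold), Hnrnpa1, a splicing factor, at 64.0, 100.5, 159 and 168 TPM, and Eif3f, an initiation subunit, at 38.1, 46.3, 67.1 and 75.4 TPM. Eef1a1, which brings aminoacyl-tRNA to the ribosome, was the most abundant, at 1328, 1490, 2228 and 2446 TPM. Of 23 initiation factors 17 were higher without overlap and 0 lower, with a median of 0.25. Eif4a1, the helicase of the cap complex, was 1.66-fold higher, and Eif3c and Eif3d 1.35-fold and 1.41-fold.

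Assembly factors lay nearer to the median of all genes than the core genes did, though not nearer than the initiation factors. Of 33 genes of large subunit assembly, 21 were higher without overlap and 0 lower, with a median log2 fold change of 0.31. Eif6, which keeps new large subunits from joining small ones, stood out at 32.0, 31.4, 73.0 and 83.2 TPM (2.46-fold, log2 difference 1.27 ± 0.16 SE, limma adjusted p = 0.0928). Npm1 and Ncl, abundant nucleolar proteins, were 1.94-fold and 1.68-fold higher. Of 26 genes of small subunit assembly, 18 were higher and 1, Utp20, lower, with a median of 0.26. Utp4 was 1.37-fold, Wdr43 1.34-fold and Fbl, the methyltransferase fibrillarin, 1.45-fold higher. Of 14 genes of RNA polymerase I transcription, which makes ribosomal RNA, 8 were higher and 1, Polr1e, lower, with a median of 0.19, close to the 0.17 of all tested genes. Polr1c, Polr1d and Taf1b were 1.32-fold, 1.35-fold and 1.36-fold higher. Of 17 genes of mTORC1 signalling and MYC, 7 were higher and 0 lower, a share near the 36.7% of all tested genes that were higher, with a median of 0.20. Myc, a transcription factor that acts on ribosome genes, was at 4.18, 13.6, 41.8 and 48.1 TPM (log2 difference 2.40 ± 0.49 SE, limma adjusted p = 0.114). It was 1.65 without control replicate 1 and 3.15 without control replicate 2. Eif4ebp1, an inhibitor of cap-dependent initiation, was 2.13-fold and Mycl 4.01-fold higher, the latter from 0.407 and 1.297 TPM in the controls. Eef1a1, Utp20 and Polr1e were chosen after their values were seen. None of the genes of these 7 lists passed limma's adjusted threshold.

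**Figure D5:**
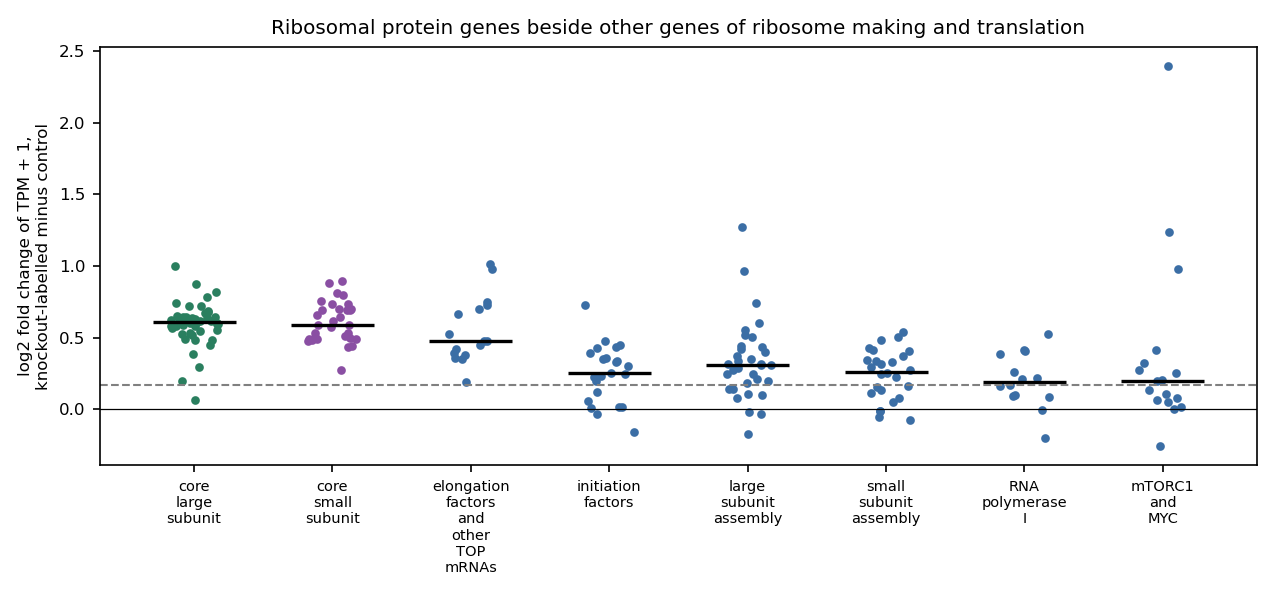
Log2 fold change of TPM + 1 for core ribosomal protein genes and 6 lists of genes of ribosome making and translation, 1 point per gene with the median as a black bar and the median of all tested genes dashed. Core genes form narrow groups with medians of 0.61 and 0.59, and the highest single point is Myc at 2.40.

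Some marker lists also divided between the groups, and 0 of their genes passed limma's adjusted threshold. The same shares of all tested genes, 36.7% higher and 14.3% lower, stand beside these counts. Of 12 proliferation genes 11 were higher in both knockout-labelled libraries, and their summed level was 60.4 to 94.0 TPM in the controls and 154 to 174 TPM in the knockout-labelled libraries. Of 12 macrophage and leukocyte genes 10 were tested and all 10 were higher, with sums of 63.4 to 151 and 767 to 826 TPM; the T cell gene Cd3e was at 0 in at least 1 library. All 8 parietal epithelial genes were higher (297 to 332 and 811 to 1065 TPM). Of 12 proximal tubule genes 11 were lower (7675 to 42994 and 4152 to 4833 TPM), as were 4 of 12 podocyte genes (653 to 1024 and 240 to 490 TPM), with none of the podocyte markers at 0. Of the other lists, 1 of 8 distal tubule genes was higher and 5 lower, 2 of 8 mesangial genes higher and 1 lower, and 0 of 10 endothelial and 0 of 4 erythroid genes differed without overlap. Most of the proximal tubule level of control replicate 1 came from Kap, the gene of that list whose groups overlapped, at 31062, 987, 1004 and 1202 TPM. In every library the proximal tubule sum was above the podocyte sum. The ribosomal protein values are thus not those of glomerular cells alone. Bulk libraries do not tell more ribosomal protein mRNA per cell from a different mix of cells, and the part of these cell types and of proliferation in the ribosomal protein values was not tested.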

How the data were processed

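Poly(A) RNA-seq of 2 control and 2 knockout-labelled libraries was deposited by the authors as TPM for 22809 Ensembl genes. Tools and build, per the submitters' processing notes, were GRCm38.p6, DESeq2 1.30.1, featureCounts 2.0.0, STAR 2.7.9 and fastp 0.20, with no roles given. Annotation, strand setting and handling of reads with several matches were not given in the sources used here. Columns were matched to samples by name. Symbols for 22762 genes were matched by gene ID to GENCODE M21 and the supplied table of gene names. TPM times union exon length gave whole reads for 22176 genes (97.2%), within a relative tolerance of 1e-06, including all 84 members.

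The test was limma 3.58.1 in R 4.3.3 (eBayes with trend, no covariate) on log2(TPM + 1) over all 18612 genes with a mean of at least 1 TPM, adjusted by Benjamini-Hochberg and called below 0.05. Fold changes on this scale understate low genes. Replicates are separate pools of 2 mice. With 2 against 2 libraries an exact permutation test cannot reach 0.05 and was not used. Members and lists were chosen with earlier results of these data known, so lists are described by counts and medians, with no test. Named were, per subunit, the 4 highest in mean TPM and the 3 largest and 3 smallest fold changes, all paralogues, Hdac1 and Hdac2, and the 3 members of each pathway list with the smallest p; other genes were chosen later, as stated beside them. Promoter motifs, 50-base stretches and read sharing were added after the data were seen. Python 3.11.15, pandas 2.3.3 and matplotlib 3.10.9 were used for tables and plots. A result of a pathway list is not reported here.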

Additional observations from a re-analysis of the deposited data

How the results depend on the processing

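Counts of called genes, the medians of the core genes and of each subunit, and the fold changes of named genes were recomputed with a pseudocount of 0.1 or 5, without the filter, with a minimum mean of 5 TPM (75 core genes left), median-ratio scaling, TPM over nuclear genes only, limma without trend, voom on recovered reads, the replicate block and each library left out. The cause of the changes below was not tested. Genes called higher by limma numbered 0, and 0 to 1558 with a library left out; genes called lower numbered 1, 0 without trend and by voom, and 0 to 522 with a library left out; core ribosomal protein genes called numbered 0, and 0 to 19. All the highest counts are those without control replicate 2. With the replicate block 0 core genes were called (lowest adjusted p = 0.0712) and 62 of 77 had an unadjusted p under 0.05, beside 2942 of all 18612 tested genes that were higher. The labels do not say that replicate numbers pair the pools; deviations of same-numbered libraries had a correlation of 0.14 over all tested genes and -0.17 over core genes.

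The core median of 0.61 was 0.39 with median-ratio scaling and 0.49 to 0.71 with a library left out; the large subunit median was 0.39 and 0.50 to 0.71, and the small subunit median 0.37 and 0.49 to 0.72. The large minus small difference was -0.044 to 0.0066 with a library left out. Core genes with a positive fold change numbered 75 to 77 in every setting. Signs turned for genes near 0. With median-ratio scaling the log2 fold change was -0.11 for Rpl24, -0.011 for Rpl35a, -0.15 for Rps27l, -0.13 for Rpl7l1, -0.10 for Rpl36al and -0.20 for Hdac2. With nuclear genes only it was -0.012 for Rpl24, -0.029 for Rps27l, -0.012 for Rpl7l1, -0.014 for Rpl36al and -0.083 for Hdac2, and by voom -0.025 for Rpl36al and -0.043 for Hdac2. With a library left out, Rpl24 ranged from -0.044 to 0.17, Rps27l from -0.10 to 0.22, Rpl3l from -0.67 to 0.075, Rpl36al from -0.18 to 0.25 and Hdac2 from -0.12 to 0.13. Rpl3l, Rpl36al and Rps27rt had at most 24 reads per library. Medians of the other lists, marker sums and promoter counts were not recomputed.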
